A study of Mus musculus with 14 samples.

Results

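Broad H3K27ac domains of embryonic stem cells (ESCs) were the 3194 peaks of at least 10000 bp in the deposited H3K27ac peak list of ESCs, which held 100469 peaks in all (3.18%). The domains were chosen by their length in 1 ESC H3K27ac library, so the ESC H3K27ac level is given as a description and was not tested. The data were ChIP-BS-seq libraries, in which chromatin was cut with micrococcal nuclease, precipitated with an antibody against H3K27ac or H3K4me1, converted with bisulfite and sequenced, so that each read reports both a mark and the methylation of its CpGs (5mC). All cells came from the R1 mouse ESC line at passages 20-23, normally kept in serum with LIF and 2i, the inhibitors of MEK and GSK3. ESCs were grown for 2 days in the same medium without 2i (1 library per mark), differentiated cells for 4 days with 1 µM retinoic acid and no LIF (RA, 1 library per mark), and XEN cells for 9 days with 0.1 µM retinoic acid and 10 ng/mL Activin A (2 libraries per mark). Retinoic acid treatment gives a mixture of cell states, and all groups rest on 1 cell line. Markers of the cell states could not be looked up in these bins, since no gene annotation of the build was used.

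H3K27ac is laid down by p300 and CBP at active enhancers and promoters, and H3K4me1 marks enhancers whether active or poised. Where neighbouring enhancers lie close together, their acetylation merges into long stretches, which in ESCs are known from regions around genes of cell identity. Methylation of CpGs is low at active enhancers and promoters and high over most of the rest of the genome.

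Counts are given here as CpG counts, the number of methylated plus unmethylated CpG calls in the 200-bp bins of a domain, and a level, in CPM, is that number for every 1000000 CpG counts of the library. The libraries held 32588942 (ESC H3K27ac), 58803653 (ESC H3K4me1), 32305709 (RA H3K27ac) and 47177841 (RA H3K4me1) CpG counts, and those of XEN cells 12147115 to 31345707. In XEN cells the file names and the sample labels disagree on which library holds which mark. Marks were taken from the labels, so these libraries are called labelled H3K27ac or labelled H3K4me1. The files of XEN cells list only bins with at least 4 counts. For counts compared with XEN cells, bins under 4 counts were therefore left out of each library, by that library's own counts. ESCs and differentiated cells had 1 file of counts per mark, called a library here. Whether such a file pools repeats of the experiment was not established, so differences between these states have no replicate check here, and fewer cells with a mark cannot be told apart from less of the mark per cell.

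The domains were 10004 to 120547 bp long, with a median of 14220 bp (quartiles 11616 and 19220 bp), against a median of 1661 bp over all peaks of the list. They covered 56.1 of the 276 Mb under ESC H3K27ac peaks (20.3%). Of them, 744 were at least 20 kb long and 62 at least 50 kb. They lay on 21 chromosomes, and the X chromosome held 32 (1.00%, against 1.73% of all peaks). Just inside the threshold lay chr14:56467555-56477558 (10004 bp), chr19:32265760-32275770 (10011 bp) and chr18:34934637-34944652 (10016 bp), with ESC H3K27ac levels of 27.4, 23.2 and 57.4 and RA levels of 25.8, 28.4 and 51.7. Just outside it lay chr8:24271290-24281278 (9989 bp), chr11:78320717-78330710 (9994 bp) and chr8:80584811-80594806 (9996 bp), with ESC levels of 31.2, 56.1 and 25.7 and RA levels of 3.87, 44.1 and 2.63. Coordinates are of mm9, the build named in the submitters' processing notes.

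Per domain the median CpG count was 1590.5 in the ESC H3K27ac library, 1900.5 in ESC H3K4me1, 1025 in RA H3K27ac and 1088.5 in RA H3K4me1. No domain was at 0 in these 4 libraries, where the lowest counts were 100, 110, 27 and 21. In the XEN libraries the medians were 539.5 and 731 (labelled H3K27ac) and 394.5 and 484 (labelled H3K4me1), and between 5 and 19 domains had no listed bin. The domains therefore had ample counts for 5mC in ESCs and differentiated cells, and fewer in XEN cells.

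The domains held 19.0% of the H3K27ac counts of ESCs and 13.8% of those of differentiated cells. For H3K4me1 the share was 12.8% in ESCs and 9.28% in differentiated cells. In the XEN libraries the share was 11.6% and 10.9% (labelled H3K27ac) and 15.2% and 14.2% (labelled H3K4me1). The median level of a domain was 48.8 CPM in ESC H3K27ac and 31.7 in RA H3K27ac, and 32.3 and 23.1 in the H3K4me1 libraries. Both marks were thus lower over the domains after retinoic acid, in share and in median level. For H3K27ac the ESC library also chose the domains, so the choice can itself produce part of the fall.

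The domains were denser in H3K27ac than shorter peaks, and this difference was part of how a long peak is called. Per kb, the median domain had an H3K27ac level of 3.10 CPM in ESCs and 1.81 in differentiated cells. ESC H3K27ac peaks of 5 kb to under 10 kb, of which there were 7544, had 1.84 and 0.926. For H3K4me1, which was not used to choose the domains, the density was 2.16 in domains and 1.98 in the shorter peaks in ESCs, and 1.48 and 1.20 after retinoic acid.

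The first question was whether broad domains lost their marks on differentiation. The log2 ratio of H3K27ac levels, RA over ESC, had a median of -0.47 over the 3194 domains (quartiles -1.31 and -0.02), and 2440 domains (76.4%) were below 0, against 70.0% of all peaks. Over all 88499 peaks with at least 30 counts in both libraries together, the median was -0.58, and over peaks of 5 to under 10 kb it was -0.59. RA levels at or below 0.5 times the ESC level were found in 1042 domains (32.6%), against 37.2% of all peaks and 39.6% of peaks of 5 to under 10 kb. Levels at least 2 times as high were found in 41 domains (1.28%), against 8.3% and 3.76%. The ESC library that set the length of the domains is also the denominator of the ratio, so the choice of the domains can itself lower the ratio and the number of gains, and nothing is read from these shares about the domains. When the libraries were scaled to their counts outside peaks, the median was -0.31 in the domains and -0.42 over all peaks, and the share of domains below 0 was 65.4%. The median of the domains was 0.11 above that of all peaks, a gap that no scaling of whole libraries can change.

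H3K4me1 showed a like shift in the domains. The median log2 ratio was -0.49, against -0.79 over 91340 peaks and -0.59 over peaks of 5 to under 10 kb, and 2409 domains (75.4%) were below 0, against 69.6% of all peaks. H3K4me1 levels at or below 0.5 times those of ESCs were found in 940 domains (29.4%), against 45.3% of all peaks, and levels at least 2 times as high in 15 (0.470%), against 9.53%. In peaks of 5 to under 10 kb these shares were 39.2% and 2.36%. All peaks with at least 30 counts in each library held a median of 458 in both together, and domains 3016. Counting error can therefore put more of the shorter peaks past a fold of 2 in either direction. The median of the domains was 0.30 above that of all peaks. Over the 3194 domains the log2 ratios of both marks had a Spearman correlation of 0.734, as a description, since both libraries of a cell state share their cells and a domain's CpGs.

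**Figure D1:**
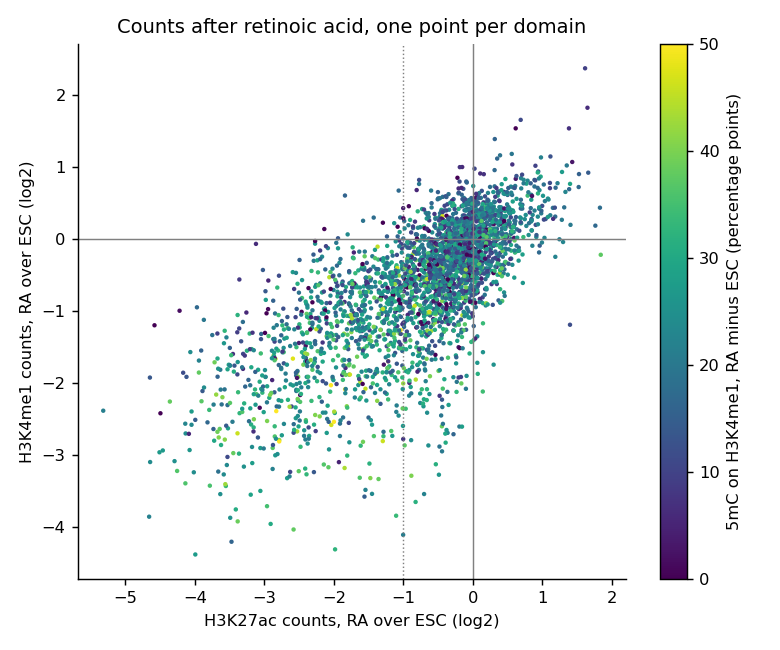
Each point is 1 of the 3194 domains, with the log2 ratio (RA over ESC) of its H3K27ac level on the x axis and of its H3K4me1 level on the y axis, coloured by the change of 5mC on H3K4me1 in percentage points. The dotted line marks an RA level of 0.5 times that of ESCs. Most points lie left of and below 0, and the ratios of both marks go together (Spearman 0.734).

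The domains spread widely around these medians. An RA level at or below 0.25 times that of ESCs was found in 464 domains (14.5%), between 0.25 and 0.5 times in 578 (18.1%), between 0.5 and 1 times in 1398 (43.8%) and above 1 in 754 (23.6%). From the first to the last of these classes, the median log2 ratio of H3K4me1 was -1.76, -1.02, -0.39 and 0.10. The median share of the domain under RA H3K27ac peaks was 12.6%, 45.0%, 78.8% and 95.4%, and the median number of RA peaks was 1, 3, 2 and 1. The RA peaks were called from the RA H3K27ac library that also sets these classes, so their cover follows from the counts and is given as a description.

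The lowest ratio among the 2761 domains with at least 200 counts in each ESC and RA library belonged to chr4:99314596-99331845 (17250 bp). Its H3K27ac level was 107 CPM in ESCs (exact 95% Poisson interval 103 to 111) and 7.12 in differentiated cells (6.23 to 8.10), a log2 ratio of -3.91. Its H3K4me1 level was 103 in ESCs and 35.1 in differentiated cells. No RA H3K27ac peak lay in it, and in XEN cells its level over the listed bins was 20.1 and 21.1 in the libraries labelled H3K27ac and 1.48 and 5.99 in those labelled H3K4me1. H3K27ac was thus 15.0-fold lower in the RA library, while H3K4me1 kept a larger part of its counts. These intervals, like all others given, cover counting error only.

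5mC in this domain was higher after retinoic acid, and below that of the median domain. Its 5mC was 4.67% on H3K27ac in ESCs and 10.9% in differentiated cells (adjusted p = 0.000852), and 8.29% and 24.0% on H3K4me1 (adjusted p = 1.20e-58), by Fisher's exact test over the counts of 2 libraries with Benjamini-Hochberg adjustment over all peaks tested. In XEN cells it was 20.3% and 29.0% in the libraries labelled H3K27ac. In those labelled H3K4me1 it was 77.8% on 18 counts (exact 95% Clopper-Pearson interval 52.4 to 93.6%) and 26.6% on 94 counts (18.0 to 36.7%), too few to tell the level. After retinoic acid its 5mC was thus below that of the median domain (31.7% on H3K27ac and 50.3% on H3K4me1). Its rise on H3K4me1, 15.7 points, was within the quartiles of all domains (14.9 and 28.1). Its RA H3K27ac value rests on 230 counts, from chromatin that still carried the mark.

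The next lowest H3K27ac ratios were those of chr6:122548834-122562734 (log2 ratio -3.87), chr16:84766352-84798445 (-3.75) and chr9:114937491-114955584 (-3.69), each with 1 RA peak over at most 11.1% of its length. Their H3K27ac levels went from 92.9, 163 and 108 in ESCs to 6.35, 12.1 and 8.33 after retinoic acid. Their H3K4me1 levels went from 29.3, 80.6 and 53.1 to 13.4, 31.96 and 11.9. Their 5mC on H3K4me1 differed more: it was 17.3%, 15.5% and 11.6% in ESCs, and 37.1%, 34.5% and 53.4% after retinoic acid. Domains with near equal losses of H3K27ac counts thus ended at different 5mC.

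The highest ratios were found in chr2:32730450-32740912 (1.84), chr2:152559593-152569842 (1.83), chr1:72216156-72228369 (1.76) and chr14:20576963-20600550 (1.66), each wholly under 1 RA peak. The first of these had H3K27ac levels of 22.4 in ESCs and 80.3 in differentiated cells, and 70.8, 57.1 (labelled H3K27ac), 62.6 and 62.6 (labelled H3K4me1) in the XEN libraries. Its H3K4me1 level was 37.0 in ESCs and 31.8 in differentiated cells. Although its H3K27ac counts were 3.58-fold higher, its 5mC was higher too, with 8.34% and 18.7% on H3K27ac (adjusted p = 2.08e-11) and 13.6% and 51.1% on H3K4me1 (adjusted p = 3.15e-132, both Fisher's exact test). In chr14:20576963-20600550 the changes of 5mC had opposite signs on the marks. There the H3K27ac level was 42.7 and 135 in ESCs and differentiated cells, and the H3K4me1 level 74.5 and 141. By Fisher's exact test 5mC on H3K27ac was lower (47.1% and 40.9%, adjusted p = 0.000192) and 5mC on H3K4me1 higher (35.7% and 50.0%, adjusted p = 4.62e-48).

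**Figure D2:**
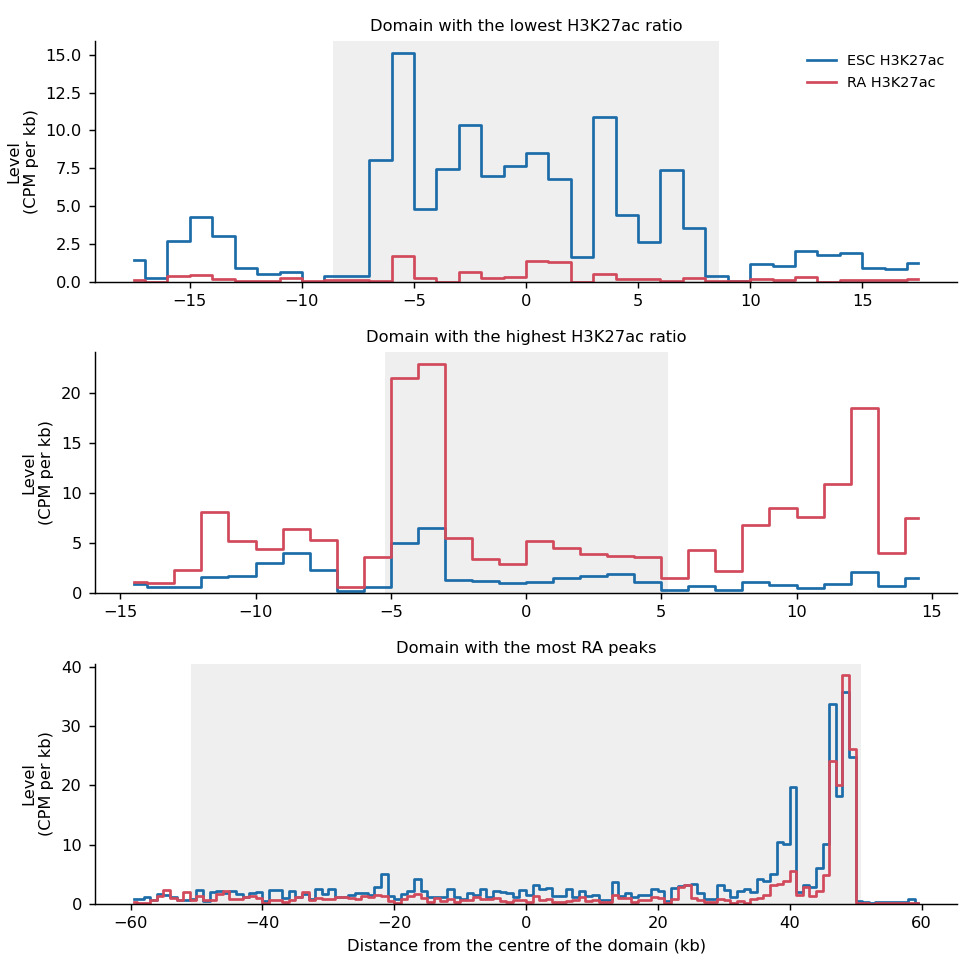
H3K27ac levels in ESCs (blue) and after retinoic acid (red) along 3 domains, in CPM per kb in 1-kb steps, by distance in kb from the centre of the domain. Grey marks the domain. In the domain with the lowest ratio (log2 -3.91) the RA line runs near 0 throughout, in that with the highest (1.84) it lies above the ESC line over the grey span, and in that with 21 RA peaks the H3K27ac levels of both states are highest near the right end.

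The second question was what became of 5mC. Pooled over all domains, 5mC was 14.1% on H3K27ac and 27.3% on H3K4me1 in ESCs, and 23.7% and 48.7% in differentiated cells. In XEN cells it was 60.5% and 60.6% in the libraries labelled H3K27ac and 34.8% and 35.5% in those labelled H3K4me1. Over the other ESC H3K27ac peaks it was 21.2% and 31.8% in ESCs and 24.9% and 47.4% after retinoic acid. Pooled over counts, the domains were therefore less methylated than the other peaks in ESCs, on both marks, and close to them after retinoic acid. Whole libraries moved as well, from 33.0% to 38.7% on H3K27ac and from 38.6% to 54.8% on H3K4me1.

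By domain, the median 5mC was 15.0% (ESC H3K27ac), 27.9% (ESC H3K4me1), 31.7% (RA H3K27ac) and 50.3% (RA H3K4me1). Over the other ESC H3K27ac peaks the medians were higher in each, with 40.6%, 40.7%, 57.9% and 58.4%. On H3K27ac, 1939 domains (60.7%) lay under 20% in ESCs and 1138 (35.7%) after retinoic acid, against 25.4% and 21.2% of the other peaks with at least 30 counts. On H3K4me1 it was 593 domains (18.6%) and 30 (0.940%), against 15.3% and 6.46% of the other peaks. Over 50% lay 8.27% and 36.4% of domains on H3K27ac, against 36.5% and 59.4% of the other peaks, and 4.85% and 50.7% on H3K4me1, against 30.9% and 63.5%.

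On H3K4me1, the mark that did not choose the domains, 5mC was a median of 21.7 percentage points higher in differentiated cells (quartiles 14.9 and 28.1), against 17.7 points over the 62106 peaks tested and 19.5 over peaks of 5 to under 10 kb. It was higher in 3136 of 3193 domains (98.2%). By Fisher's exact test (adjusted p under 0.05) 3038 domains were higher (95.1%), against 70.3% of all peaks tested, and 18 were lower (0.564%), against 1.23%. The domains held a median of 3016 CpG counts in both libraries together and all peaks 458, so an equal difference can be called more often in domains. How much of the gap this makes up was not tested. Differences of over 20 points were called in 1805 domains (56.5%), against 42.7%.

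On H3K27ac the change was smaller. The median was 12.7 points (quartiles 4.57 and 26.4), against 10.8 points over the 51829 peaks tested and 14.7 over peaks of 5 to under 10 kb, and 2990 of 3192 domains (93.7%) were higher. With 5mC averaged over covered bins the median was 6.54 points. Fisher's exact test called 2682 higher (84.0%), against 45.7% of all peaks, and 67 lower (2.10%), against 2.4%, on a median of 2672 counts in domains and 243 over all peaks. Differences of over 20 points were called in 1158 domains (36.3%), against 29.3%. The test compares the CpG counts of 2 libraries, not the cell states, and CpGs of 1 read are not independent.

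The largest 5mC rises on H3K4me1 were in 3 domains. In chr8:44375018-44386604 it was 7.84% in ESCs (1314 counts) and 69.0% in differentiated cells (258 counts, 63.0 to 74.6%). There 5mC on H3K27ac went from 5.28% to 64.4%, and in the XEN libraries it was 79.2% and 80.0% (labelled H3K27ac, on 24 and 40 counts) and 63.3% and 82.4% (labelled H3K4me1). Its H3K27ac level was 26.1 in ESCs and 6.35 in differentiated cells, and 39.7% of its length was under 3 RA peaks. This domain was thus hardly methylated in ESCs and largely methylated in every library of the other states, with both marks lower after retinoic acid.

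In chr4:101108304-101131174, 5mC on H3K4me1 was 25.9% in ESCs and 76.3% in differentiated cells. In chr15:88528835-88548943 it was 21.3% and 71.7%, and on H3K27ac 12.9% and 75.3% (adjusted p = 3.06e-262, Fisher's exact test). This domain still had 99.4% of its length under 3 RA H3K27ac peaks, and its H3K27ac level was 70.1 in ESCs and 30.1 after retinoic acid. Peaks were thus still called over DNA that was mostly methylated in the same H3K27ac reads.

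The largest falls were smaller than these rises. In chrY:2875637-2888073, 5mC on H3K4me1 was 33.4% (296 counts) in ESCs and 21.9% (297 counts) in differentiated cells (adjusted p = 0.00321, Fisher's exact test). In chr3:108384677-108396043 it was 34.9% and 24.2% (adjusted p = 0.000161), and in chr11:98059198-98070683 27.4% and 18.1% (adjusted p = 6.03e-06, all Fisher's exact test). The domain on chromosome 11 was low on H3K27ac in ESCs and differentiated cells and in the XEN libraries labelled H3K4me1: 5.58% (ESC H3K27ac), 3.51% (RA H3K27ac), and 4.05% and 2.47% (XEN). In the XEN libraries labelled H3K27ac it was 32.1% and 34.1%.

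The 5mC of the domains was set against their H3K27ac ratio. Values on H3K27ac come from the same libraries that set the ratio and are a description, while those on H3K4me1 come from other libraries. In the classes of H3K27ac ratio given above, from the lowest to the highest, the median 5mC on RA H3K27ac was 53.4%, 52.1%, 21.7% and 18.8%. On ESC H3K27ac it was already 18.9%, 21.0%, 13.0% and 11.5%. On RA H3K4me1 it was 53.6%, 55.8%, 48.0% and 47.8%, and on ESC H3K4me1, before retinoic acid, 27.3%, 29.8%, 28.0% and 27.3%. The change on H3K4me1 had a median of 24.6, 24.5, 20.4 and 20.3 points. Thus even domains with more H3K27ac counts after retinoic acid were about 20.3 points higher in 5mC on H3K4me1, and 5mC on H3K4me1 in ESCs hardly varied with the later H3K27ac ratio (Spearman -0.0304 over 3194 domains, as a description). The H3K27ac ratio and the change of 5mC on H3K4me1 had a Spearman correlation of -0.183 over 3193 domains.

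Within the H3K4me1 libraries single bins showed the same shift. Of 39279 domain bins with at least 30 counts in both states, the median 5mC was 14.0% in ESCs and 50.0% in differentiated cells. Unmethylated bins (UMRs, under 20%) made up 60.6% and 19.0%. Of the 23791 that were UMRs in ESCs, 29.7% were still under 20% after retinoic acid and 30.1% were over 50%. In bins of the other ESC H3K27ac peaks these shares were 46.5% and 13.9%. Bins in domains were therefore less often still unmethylated on H3K4me1 than bins of the shorter peaks, without a test of the difference.

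On H3K27ac, 23153 domain bins were covered in both states, and their median 5mC was 0.833% in the ESC and 2.16% in the RA library. Of the 21550 UMRs of ESCs, 80.5% were still under 20% and 6.07% over 50%, against 90.9% and 1.94% in the other peaks. A covered bin is one with at least 30 counts of the mark, so bins that had lost H3K27ac were not among them. At least 1 UMR bin was present in 2825 of 3052 domains with a covered bin in ESC H3K27ac (92.6%) and 2026 of 2515 in RA H3K27ac (80.6%), against 82.2% and 72.2% of peaks of 5 to under 10 kb. On H3K4me1 it was 3010 of 3185 (94.5%) and 2106 of 2941 (71.6%), against 79.8% and 52.9%. These counts were made library by library, do not follow single domains, and depend on the number of covered bins, of which longer peaks hold more.

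The marks differed within a cell state. In ESCs 5mC was lower on H3K27ac than on H3K4me1 in 2648 of 3194 domains (82.9%), by a median of 9.19 points, and in differentiated cells in 2554 of 3191 (80.0%). The median difference, H3K27ac minus H3K4me1, was -9.19 points in ESCs and -13.1 in differentiated cells, against -1.48 and -5.65 over all peaks covered. In XEN cells it was 11.4 and 9.27 points in replicates 1 and 2, against 7.92 and 5.71 over all peaks covered. The library labelled H3K27ac was the lower one in 20.4% and 24.8% of domains and in 24.9% and 30.1% of all peaks covered, so the sign in XEN cells was that of the whole list. Pooled over the domains, the libraries labelled H3K27ac in XEN cells had 60.6% ± 0.134 and those labelled H3K4me1 35.2% ± 0.445 (SD, n = 2), a difference of 25.4 points (exact permutation test over the 4 libraries, two-sided, p = 0.333, the smallest that 6 splits allow). The sign in XEN cells was opposite to that in ESCs and differentiated cells, and would be the same if the marks were as the file names give them.

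In bins covered on both marks the difference was small. In the 33231 domain bins with at least 30 counts of both marks in ESCs, the median difference of H3K4me1 minus H3K27ac was 0.662 points, and in 17614 such bins in differentiated cells 2.29 points. Bins higher on H3K4me1 by over 20 points numbered 399 (1.20%) in ESCs and 617 (3.50%) in differentiated cells, against 1.46% and 4.21% in the other ESC H3K27ac peaks. Bins higher on H3K27ac by as much numbered 320 (0.963%) and 109 (0.619%), against 1.06% and 0.469%. In XEN cells 36 of 3726 (0.966%) and 58 of 5421 such bins (1.07%) in replicates 1 and 2 were higher in the library labelled H3K4me1, against 0.870% and 0.955% in the other peaks. In that labelled H3K27ac 212 (5.69%) and 275 (5.07%) were higher, against 7.17% and 5.52%. These shares in the domains were near those of the other peaks.

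The third question was how centres and flanks compared. In ESCs 5mC was lowest inside the domains and highest just outside their ends. Over 20 equal parts of the domain, pooled 5mC on ESC H3K27ac was 29.6% in the first part, 12.0% in the fourth and 13.8% in the tenth, and in the first kb outside 52.4% to the left and 52.3% to the right. On ESC H3K4me1 it was 36.4%, 26.6% and 25.8% in the same parts, and 46.4% and 46.6% outside. The ends were called on the ESC H3K27ac library, so its drop in counts there follows from the rule and its 5mC is a description. On both marks 5mC was highest next to the ends and lower again further outside.

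After retinoic acid 5mC was again highest just outside the ends, and the inside changed shape. On RA H3K27ac 5mC was 64.2% and 62.8% in the first kb outside, 19.1% in the fourth part and 25.7% in the tenth. On RA H3K4me1 it was 64.3% and 63.7% outside, 47.2% in the fourth part and 49.8% in the tenth. H3K27ac levels had the reverse form, with 2.99 CPM per kb in the fourth part and 2.36 in the tenth in differentiated cells, and 3.99 and 3.52 in ESCs. The middle of the domains thus had fewer H3K27ac counts and more 5mC than the shoulders, a difference that was 6.67 points of 5mC in the RA library and 1.88 points in the ESC library.

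In the XEN libraries labelled H3K4me1, 5mC was 27.8% and 28.7% in the fourth part and 37.9% and 38.5% in the tenth, and their counts peaked in the shoulders (3.40 and 3.10 CPM per kb in the fourth part, 2.64 and 2.47 in the tenth). In the libraries labelled H3K27ac, 5mC was 59.4% and 59.6%, and 61.1% and 61.2%, and counts were 1.99 and 1.87, and 2.20 and 2.07. ESC and RA H3K27ac had more counts in the fourth part than in the tenth, as did the XEN libraries labelled H3K4me1. ESC and RA H3K4me1 had fewer in the fourth (2.23 and 1.63) than in the tenth (2.36 and 1.71), as did the XEN libraries labelled H3K27ac.

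**Figure D3:**
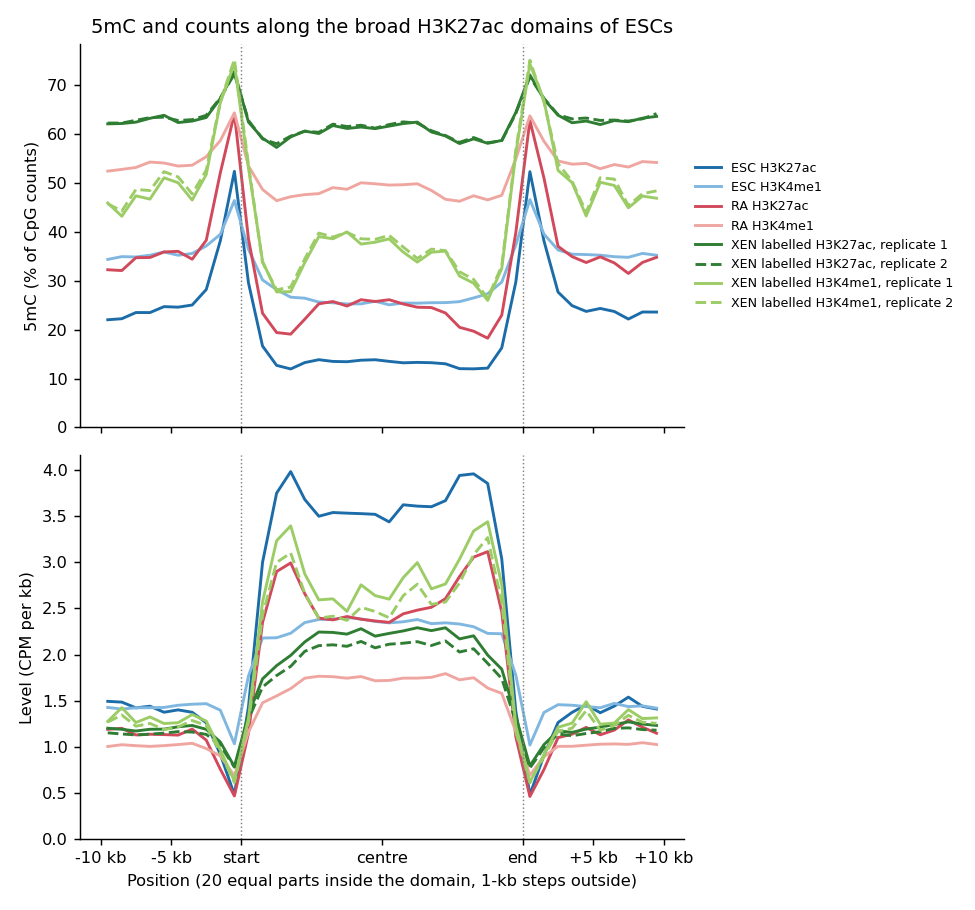
Pooled 5mC (top, % of CpG counts) and level (bottom, CPM per kb) of the 8 libraries along the 3194 domains, in 20 equal parts inside and 1-kb steps to 10 kb outside. Each line is a library, dashed for replicate 2. All libraries peak in 5mC in the first kb outside (52.4% for ESC H3K27ac, 64.2% for RA H3K27ac, on the left) and are lower inside, and the red and light green lines have a raised middle.

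Domain by domain, 5mC of the flanks (0 to 5 kb outside both ends) was set against that of the centre (the middle 2 kb), with at least 30 counts in both. The flanks were a median of 15.8 points higher on ESC H3K27ac (3114 domains) and 14.5 points higher on ESC H3K4me1 (3163 domains). After retinoic acid the difference was 3.13 points (2418 domains) and 2.14 points (2671 domains), but -0.16 and -0.65 points over domains of at least 15000 bp and 0.179 and 0.0110 points with flanks of 5 to 10 kb. In XEN cells it was 0.787 and 0.404 points in the libraries labelled H3K27ac and 3.26 and 2.18 in those labelled H3K4me1. The flanks were higher in 72.4% and 73.6% of domains in ESCs, and in 55.0% and 53.8% after retinoic acid. By this median over domains the contrast was smaller in the other states than in ESCs. For counts pooled over domains it was not smaller on RA H3K27ac or in the XEN libraries labelled H3K4me1.

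By the median over domains, the centres changed more than the flanks. On H3K4me1 the centre was a median of 28.8 points higher after retinoic acid (2695 domains, higher in 97.4%), and the flanks were 18.3 points higher (3138 domains, 94.8%). On H3K27ac it was 24.1 points in the centre (2421 domains) and 14.1 points in the flanks (3127 domains). Weighted by counts, centres and flanks moved about alike on H3K27ac, and the contrast did not shrink there. Pooled, centres and flanks had 13.0% and 29.7% (ESC H3K27ac), 25.2% and 38.0% (ESC H3K4me1), 23.7% and 40.6% (RA H3K27ac), and 48.4% and 56.3% (RA H3K4me1). In XEN cells they had 60.2% and 64.9%, and 60.5% and 65.2% (labelled H3K27ac), and 34.9% and 54.4%, and 35.8% and 55.3% (labelled H3K4me1). Flanks can hold other peaks, and from 5 to 10 kb outside the pooled 5mC was lower than next to the domain, with 23.4% and 33.9% on H3K27ac in ESCs and differentiated cells.

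The last question was into how many RA H3K27ac peaks each domain broke. With at least 1 bp of overlap, 147 domains (4.60%) held no RA H3K27ac peak, against 45.4% of all ESC H3K27ac peaks. In peaks of 5 to under 10 kb that share was 16.5%. Of the domains, 940 (29.4%) held 1, 862 held 2, 598 held 3 and 647 held 4 or more. At least 2 were held by 2107 domains (66.0%), against 6.76% of all peaks and 30.01% of peaks of 5 to under 10 kb. Longer regions can hold more peaks, so these shares follow length in part. The RA peaks covered 37.3 Mb of the domains (66.5%), and the median domain was covered over 73.7% of its length, with a longest RA peak of 6507 bp. Peaks of 5 to under 10 kb were covered over 56.4% of their summed length. RA peaks of at least 10 kb overlapped 1130 domains (35.4%), against 11.9% of peaks of 5 to under 10 kb. Domains were covered for at least 90% in 868 cases and for under 25% in 443.

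The number of pieces grew with length. At least 2 RA peaks were found in 55.1% of the 1749 domains under 15 kb, 73.8% of the 701 of 15 to under 20 kb, 79.5% of the 464 of 20 to under 30 kb and 92.1% of the 280 longer ones. The share of the sequence covered went from 62.9% in the shortest class to 70.5% in the longest. Longer domains thus held more pieces and were not covered less.

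**Figure D4:**
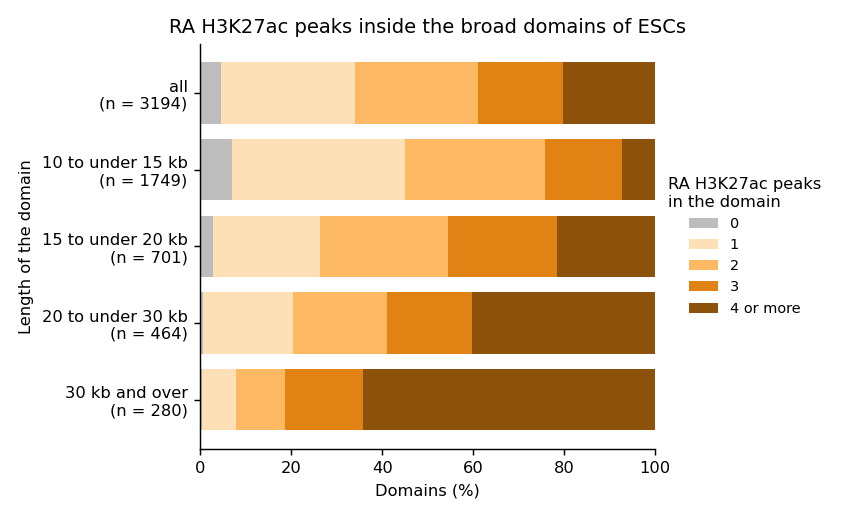
Share of domains (%, x axis) that held 0, 1, 2, 3, or 4 or more RA H3K27ac peaks, for all 3194 domains and by length class (y axis). The share with at least 2 goes from 55.1% in the shortest class to 92.1% in the longest, and the share with none is 4.60% over all.

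The same count was made the other way round. Of the 2732 RA H3K27ac peaks of at least 10000 bp, 59.4% held at least 2 ESC H3K27ac peaks, 6.15% held none, and ESC peaks covered 66.8% of their length. Broad peaks chosen in either state were thus often broken up in the other, 66.0% and 59.4% with at least 2 pieces. The lengths of both sets were not matched, and the difference between these shares was not tested. For H3K4me1, ESC peaks covered 93.6% of the domains and RA peaks 63.6%, and at least 2 H3K4me1 peaks were found in 60.3% of domains in ESCs and 81.8% after retinoic acid. After retinoic acid 53.0% of the length of the domains was under RA peaks of both marks, 13.5% under H3K27ac alone, 10.6% under H3K4me1 alone and 22.9% under neither.

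The longest domain, chr11:8422539-8543085 (120547 bp), had H3K27ac levels of 414 in ESCs and 211 in differentiated cells, and H3K4me1 levels of 338 and 238. It held 8 RA peaks over 92.2% of its length, the longest of 70918 bp. Its 5mC was 20.5% and 52.4% on H3K27ac and 26.5% and 57.2% on H3K4me1, and in XEN cells 63.9% and 64.6% (labelled H3K27ac) and 64.8% and 68.1% (labelled H3K4me1). In XEN cells its levels were 383 and 351 (labelled H3K27ac) and 229 and 218 (labelled H3K4me1). It was thus still nearly covered by H3K27ac peaks after retinoic acid, at a lower level of both marks, and its 5mC was higher than in ESCs in each RA and XEN library.

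The domain with the most RA peaks, chr7:140216471-140317992 (101522 bp), held 21, which covered 71.9% of it, the longest being 16319 bp. Its H3K27ac level was 348 in ESCs and 212 in differentiated cells, and its H3K4me1 level 354 and 227. Its 5mC was 15.9% and 27.8% on H3K27ac (adjusted p = 5.32e-78, Fisher's exact test) and 26.1% and 52.7% on H3K4me1. Its H3K27ac counts were densest near one end, as its track shows. A count of 17 RA peaks was reached by chr1:84776381-84872339 (95959 bp, 77.9% covered, longest 10374 bp) and chr6:39337409-39407354 (69946 bp, 62.4% covered, longest 10887 bp), with H3K27ac levels of 268 and 336 in ESCs and 169 and 113 in differentiated cells.

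Some long domains stayed nearly covered by few RA peaks. In chr7:29678702-29771571 (92870 bp) 3 RA peaks covered 95.2%, the longest of 73116 bp, and the H3K27ac level was 254 in ESCs and 292 in differentiated cells. In chr4:130253101-130340653 (87553 bp) 3 RA peaks covered 98.5%, and the level was 101 and 147. Both were more methylated after retinoic acid all the same, with 17.2% and 43.9% in the first and 40.2% and 59.3% in the second on H3K27ac (adjusted p = 1.25e-61 for the second, Fisher's exact test), and 24.1% and 57.0%, and 35.0% and 64.5%, on H3K4me1.

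Bins of the domains inside RA H3K27ac peaks differed in 5mC from those outside them, also in libraries that did not define the RA peaks. Pooled, 5mC inside and outside was 11.5% and 24.1% in ESC H3K27ac, 25.4% and 31.2% in ESC H3K4me1, and 47.3% and 59.0% in RA H3K4me1. In XEN cells it was 59.7% and 68.6%, and 59.8% and 68.7% (labelled H3K27ac), and 32.5% and 74.9%, and 32.9% and 74.6% (labelled H3K4me1). In RA H3K27ac, whose counts drew the peaks, it was 21.8% and 62.7%. The stretches that were later left without a peak were thus already the more methylated ones in ESCs, on both marks.

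Within single domains with at least 30 counts in both parts, the part outside RA peaks was a median of 12.5 points higher on ESC H3K4me1 (2521 domains, higher in 83.8%) and 19.1 points higher on RA H3K4me1 (2085 domains, 89.2%). In XEN cells it was 15.7 and 14.7 points (labelled H3K27ac), and 24.2 and 24.0 points (labelled H3K4me1). The counts differed too: ESC H3K27ac had 4.06 CPM per kb in bins inside and 2.02 in bins outside, ESC H3K4me1 2.34 and 2.11, and RA H3K4me1 2.20 and 0.547. In ESCs the stretches without a later peak therefore had less H3K27ac and nearly as much H3K4me1. Whether this lower level moves the 5mC difference was not tested.

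**Figure D5:**
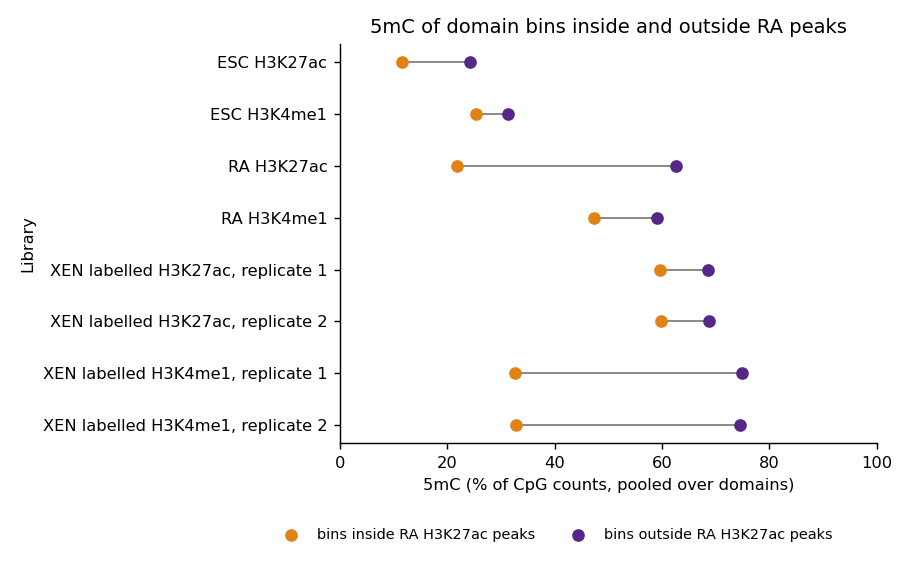
Pooled 5mC (x axis, % of CpG counts) of domain bins inside (orange) and outside (purple) RA H3K27ac peaks, for each of the 8 libraries (y axis). The purple point is to the right in every library, from 31.2% against 25.4% in ESC H3K4me1 to 74.9% against 32.5% in XEN labelled H3K4me1, replicate 1.

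In XEN cells the domains were compared with ESCs by labelled mark. The log2 ratio of counts had a median of -1.41 for the libraries labelled H3K27ac (-1.40 and -1.41 by replicate), against -1.14 over all peaks. Levels at or below 0.5 times those of ESCs were found in 1898 domains (59.4%), against 48.1% of all peaks, and at least 2 times as high in 149 (4.67%), against 16%. Peaks of 5 to under 10 kb had a median of -1.51, with 58.4% at or below 0.5 times and 8.29% at least 2 times as high. For the libraries labelled H3K4me1 the median was -0.18 (-0.14 and -0.23), against -0.94 over all peaks. Here 953 domains (29.8%, against 42.7%) were at or below 0.5 times and 507 (15.9%, against 14.8%) at least 2 times as high. Peaks of 5 to under 10 kb had a median of -0.61, with 39.2% and 15.8%. A domain or peak counts here only where both replicates pass. The XEN libraries labelled H3K4me1 held 12147115 and 15698181 counts, against 58803653 in ESC H3K4me1. The floor of 4 counts can therefore remove more of their weak bins. How far this moves the gaps to all peaks, here or against differentiated cells, was not tested. With the marks as the file names give them, the medians were -0.73 for H3K27ac and -0.52 for H3K4me1. Levels at or below 0.5 times were then found in 1211 domains for H3K27ac (37.9%, against 33.9% of all peaks) and 1030 for H3K4me1 (32.2%, against 48.6%), and levels at least 2 times as high in 82 (2.57%, against 10.8%) and 106 (3.32%, against 10.3%). In peaks of 5 to under 10 kb these shares were 41.3%, 41.7%, 5.53% and 5.09%. The size of the difference between XEN cells and ESCs therefore rests on which mark each library holds. The ESC H3K27ac library that chose the domains is also the denominator of the H3K27ac ratios here, so the choice can itself lower them.

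The domains that lost H3K27ac counts after retinoic acid were also low in the XEN libraries of both labels. From the lowest to the highest class of H3K27ac ratio, the median log2 ratio of XEN over ESC was -2.87, -1.57, -1.35 and -0.44 for the libraries labelled H3K27ac, and -2.78, -1.35, 0.15 and 0.75 for those labelled H3K4me1. The first of these ratios shares the ESC H3K27ac library with the ratio that defined the classes. Median 5mC in XEN cells by class was 62.6%, 65.5%, 59.98% and 60.7% in the first library labelled H3K27ac and 62.7%, 63.4%, 37.4% and 32.7% in the first labelled H3K4me1. In replicate 2 it was 61.9%, 65.6%, 60.4% and 60.3%, and 62.1%, 64.4%, 36.8% and 32.6%. In the libraries labelled H3K4me1, then, 5mC split the classes as RA H3K27ac did, and in those labelled H3K27ac it was near even, as in RA H3K4me1.

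Against differentiated cells, XEN libraries labelled H3K27ac had a median log2 ratio of -0.45 over the domains, against 0.04 over all peaks, with 1048 domains (32.9%, against 24.9%) at or below 0.5 times and 293 (9.19%, against 22.7%) at least 2 times as high. Those labelled H3K4me1 had 0.29, against -0.13, with 344 domains (10.8%, against 21.8%) at or below 0.5 times and 736 (23.0%, against 21.7%) at least 2 times as high. Peaks of 5 to under 10 kb had medians of -0.26 (labelled H3K27ac) and 0.07 (labelled H3K4me1). Of these peaks 31.4% and 15.9% were at or below 0.5 times, and 16.2% and 23.1% at least 2 times as high. Replicates were close but not equal within counting error: between replicates of a labelled mark, 5mC of a domain differed by a median of 2.26 and 2.76 points and its level by 0.147 and 0.171 on the log2 scale, with a chi-square per degree of freedom of 6.38 and 6.01. The labels do not say whether replicates were separate cultures. The 5mC of domains on RA H3K4me1 had a Spearman correlation over domains of 0.918 with the mean of the XEN libraries labelled H3K27ac (3071 domains) and 0.829 with those labelled H3K4me1 (3031 domains), as a description.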

How the data were processed

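ChIP-BS-seq of H3K27ac and H3K4me1 was analysed in ESCs, differentiated cells (RA) and XEN cells. Alignment by the authors used Bismark and Bowtie (mm9, per the submitters' processing notes), and reads whose CpGs disagreed were dropped. The paper gives alignment as single-ended. Titles of the XEN samples end in PE, unlike those of the ESC and RA samples. Whether XEN reads were aligned otherwise was not established. The deposited values are raw counts, 1 column of methylated and 1 of unmethylated CpGs for each bin of 200 bp. Methylated calls were taken to be in the column that is rare on mitochondrial DNA. The authors called peaks with HOMER (peak size 2500 bp, local and clonal filtering off). The deposited peak score was used only to rank RA peaks, and the authors' lengths only to choose domains. Clonal reads were thus not filtered for peaks, and PCR copies can narrow the stated intervals.

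Here 5mC was methylated over all CpG counts (at least 30, except for named domains in XEN libraries), and levels were scaled to each library's total. Bins were given to a domain by overlap of at least 1 bp. The main tests were Fisher's exact test, two-sided, per peak, with Benjamini-Hochberg adjustment over all ESC H3K27ac peaks tested, and an exact permutation test over XEN libraries. Python 3.11.15, numpy 2.4.6, pandas 2.3.3, scipy 1.17.1 and numba 0.67.0 were used, and the test was run on simulated data first. Named domains had at least 200 counts in each ESC and RA library and were the 5 longest, the 4 lowest and 4 highest H3K27ac ratios, the 3 largest rises and 3 largest falls of 5mC on H3K4me1 and the 3 with most RA peaks, beside 3 just inside and 3 just outside the threshold. Domains and rules were chosen with earlier results of these data known. Alternatives were domain length, overlap, scaling, fold, coverage, centre and flank, peak overlap and score, and leaving out XEN libraries. Input, H3K36me3 and single-cell RNA-seq were not used here. Whether a file of ESCs or RA cells pools repeats was not established.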

Additional observations from a re-analysis of the deposited data

Results flagged for a closer look

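The difference in 5mC between the libraries of both marks had the opposite sign in XEN cells to that in ESCs and differentiated cells. Pooled over the domains it was 25.4 points (labelled H3K27ac minus labelled H3K4me1) in XEN cells, while ESCs had -13.2 and differentiated cells -24.9 points. Both XEN replicates had this sign, with 25.6 and 25.2 points. In XEN cells, however, the file names and the sample labels disagree on the marks. With the marks as in the file names the XEN difference is -25.4 points, with the sign of the other states. The difference between the cell states was not tested, since ESCs and differentiated cells had 1 library per mark.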

How the results depend on the processing

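Of 87 alternative values over 16 results, 51 stayed within the replicate or counting error or within 1.5 times the count, 33 moved further and 3 reversed. With a minimum length of 8000 bp, 1665 domains were at or below 0.5 times their H3K27ac level, flanks minus centres were 4.47 (RA H3K27ac) and 3.67 points (RA H3K4me1), 341 domains had no RA peak, and XEN labelled H3K4me1 over ESC was -0.29. With 15000 bp these were 464 domains, -0.16 and -0.65 points (both reversed), 24 domains and -0.10. At that length XEN labelled H3K27ac over ESC was -1.33, 1293 (H3K27ac) and 1405 (H3K4me1) domains were higher in 5mC, the change on H3K4me1 was 22.8 points, flanks minus centres in ESCs were 14.8 and 13.3 points and 1144 domains held at least 2 RA peaks. The set of domains itself differs at these lengths. Scaling to counts outside peaks gave ratios of -0.31 (H3K27ac) and -0.56 (H3K4me1), and to counts inside peaks -0.54 (H3K27ac). Requiring over 20 points left 1158 and 1805 domains higher in 5mC. A mean over covered bins gave changes of 6.54 and 19.4 points. With the middle 20% as centre the flanks were 17.8 points higher on ESC H3K27ac. With flanks from 5 to 10 kb they were 10.4 and 10.9 points higher in ESCs and 0.179 and 0.0110 after RA. Domains without an RA peak numbered 264 with at least 0.5 of the RA peak inside and 314 with RA peaks of the upper 50% by score. XEN over ESC was -1.15 and -0.0913 over all deposited bins. The cause of these moves was not tested. With marks as in the file names, an alternative added after seeing the data, it was -0.73 and -0.52, and the XEN difference in 5mC reversed to -25.4 points by construction. Leaving out 1 XEN library gave -1.41 to -1.40 (labelled H3K27ac), -0.23 to -0.14 (labelled H3K4me1) and 25.1 to 25.7 points.

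With the replicate number as a block, the XEN difference stayed 25.4 points (exact permutation p = 0.5, the smallest it allows). The replicate differences in level of both marks had a correlation of -0.00915 over 2975 domains. Libraries of different marks need not share such differences, so this cannot tell whether the numbers pair them. No paired analysis was possible for ESCs and differentiated cells because each had 1 library per mark. XEN domains with few counts limit 5mC there.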
